A study of Homo sapiens with 8 samples.

Results

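The 10 genes described here encode inflammatory cytokines: the interleukin-1 ligands IL1A and IL1B, the gp130 ligands IL6, IL11 and LIF, the growth cytokine CSF2, the tumor necrosis factor relatives TNF and LTB, the interleukin-23 subunit IL23A, and IL32. They were chosen by gene name, with no threshold on their values, but with earlier results of these data known. All 10 were found among the 58735 genes of the deposited table, 1 row each. RNA sequencing with poly(A) selection was done on PC3, an established cell line from a human prostate cancer. There were 4 siCtrl libraries and 4 siPRMT7 libraries, named here as the labels name them. The labels give the genotype of the siCtrl cells as WT and that of the siPRMT7 cells as PRMT7 knockdown. All 8 libraries came from cells that were transfected by lipofection and then kept in culture for 48 h, with a transfection efficiency above 80% by green fluorescence, per the labels. Titles of the samples begin with si whereas the names of their libraries begin with sh. The labels give neither the RNA sequences used nor the number of separate cultures. Every p-value therefore measures only the spread between these libraries, which may be technical. PRMT7 is an enzyme that methylates arginine residues of proteins, and the comparison asks how these transcripts differ when PRMT7 is targeted.

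Cytokines are secreted or membrane-bound proteins through which cells signal to each other. Interleukin-1 and TNF bind receptors that activate the transcription factor NF-kB, and NF-kB in turn drives many cytokine genes, including IL6, CSF2 and IL1B. The interleukin-6 family signals through the shared receptor chain gp130, JAK kinases and STAT3. Many cytokine transcripts carry AU-rich elements in the 3′ UTR, to which decay factors such as ZFP36 bind, so that the messages are short-lived. PC3 cells are known to secrete interleukin-6.

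The libraries held 14526030 to 15724862 fragments, and PRMT7, the targeted gene, was little lower in the libraries labelled siPRMT7. PRMT7 (chr16:68310974-68358563, GRCh38, plus strand) had 5.24, 4.86, 5.10 and 5.25 FPKM in siCtrl replicates 1 to 4 and 4.62, 4.31, 5.01 and 4.82 FPKM in siPRMT7 replicates 1 to 4. FPKM is the number of fragments scaled to gene length and to library size. The difference did not pass a two-sided exact permutation test (log2 difference -0.10, p = 0.0571, where the smallest possible is 0.0286). The library siPRMT7 replicate 2 stood apart from the rest. It lay at 28.4 on the first principal component, against -11.9 to 7.36 for the other 7, and 3.85% of its fragments came from genes of ribosomal proteins (2.90 to 3.38% elsewhere). Fold changes are therefore also given without it. For PRMT7 the log2 difference without it was -0.07. Of 6 epithelial and PC3 markers 5 (KRT8, KRT18, KRT19, EPCAM and VIM) were above 1 FPKM in every library, and CDH1 had 0.310 to 0.573 FPKM. Of the prostate luminal markers KLK3 and KLK2 were at 0 fragments throughout, while TMPRSS2 lay between 1.68 and 2.19 FPKM. Of 10 leukocyte markers 9 stayed under 1 FPKM in all libraries, CD3E and MS4A1 at 0 fragments, and CD14 had a mean of 0.748 FPKM in siCtrl and of 1.05 FPKM in siPRMT7 libraries, whose part in the results was not tested. The summed leukocyte markers had 1.204 to 2.44 FPKM in siCtrl and 1.43 to 1.91 FPKM in siPRMT7 libraries. Of 6 fibroblast markers 4 stayed under 1 FPKM in all libraries, but COL1A1 had 6.13 to 7.53 and COL3A1 1.70 to 2.66 FPKM. Of 4 endothelial markers 3 stayed under 1 FPKM, and PECAM1 had 2.83 to 3.64 FPKM. Which cells these transcripts came from was not tested. In bulk RNA, fewer cells making a cytokine and less of its RNA per cell cannot be told apart.

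LIF was by far the most abundant of the 10 transcripts, and the others were low. LIF had 36.8 ± 0.710 FPKM in siCtrl libraries (SD, n = 4), above 94.5% of protein-coding genes and 6.26 times the next level. CSF2 followed with 5.87 ± 0.633 FPKM and IL6 with 5.28 ± 0.529 FPKM, and the ranges of those 2 overlapped. IL1B had 3.15 ± 0.392 FPKM, apart from IL6 above it and from IL32 below it. IL32 (2.25 ± 0.113 FPKM), IL23A (1.97 ± 0.555), IL11 (1.59 ± 0.305), LTB (1.24 ± 0.362), IL1A (0.879 ± 0.340) and TNF (0.528 ± 0.200) then formed a series in which each overlapped its neighbour. The order was the same in the siPRMT7 libraries, where IL1B and IL32 overlapped and where LTB, IL1A and TNF were apart from each other. LIF held 52.2 to 63.1% of the summed FPKM of the 10 genes. That sum was 57.9 to 62.3 FPKM in siCtrl and 63.9 to 69.6 FPKM in siPRMT7 libraries, which is given as a description, with no test.

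**Figure D1:**
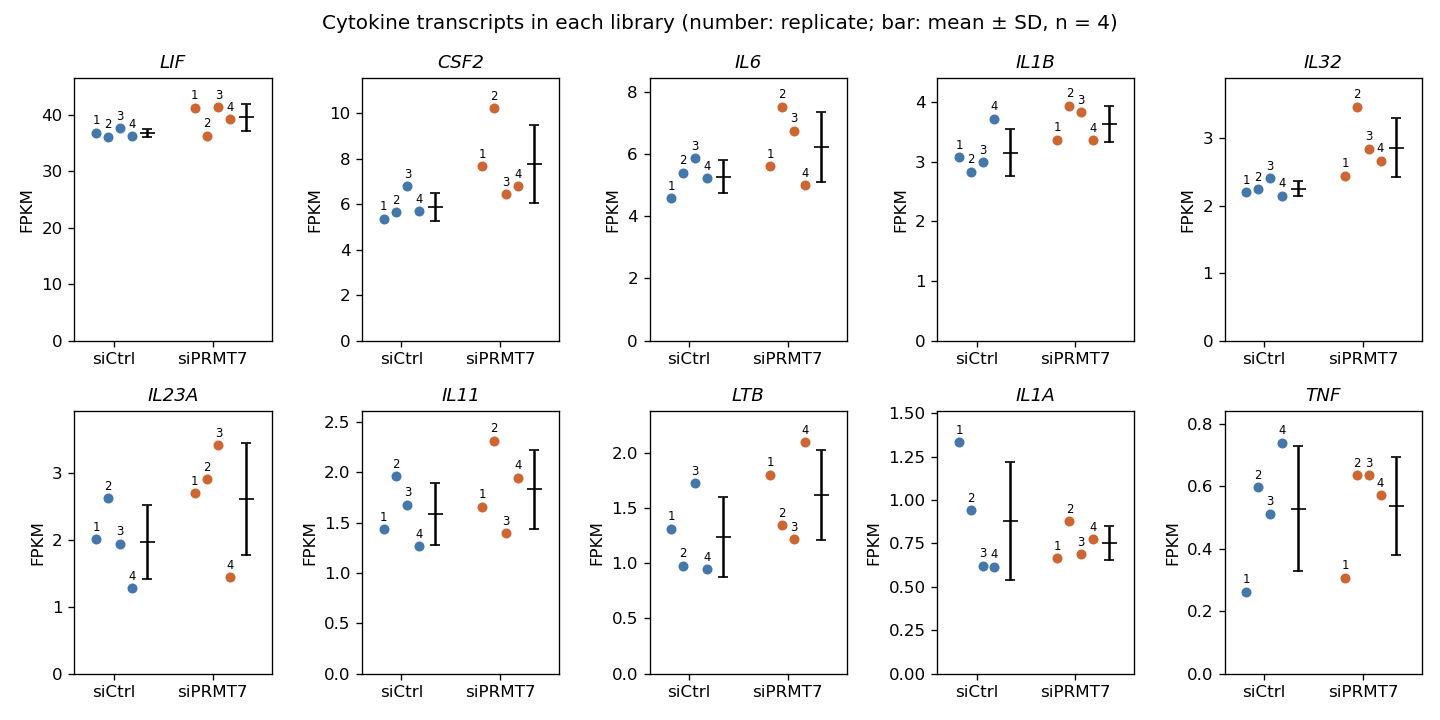
FPKM of each cytokine in each library, siCtrl in blue and siPRMT7 in orange, with the replicate number above each point and the group mean ± SD (n = 4) beside it, each axis starting at 0. IL32 is the cytokine whose groups do not overlap, and replicate 2 is the highest siPRMT7 point for CSF2, IL6, IL1B, IL32, IL11 and IL1A but the lowest for LIF.

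Of the 10 cytokines 8 reached 1 FPKM in at least 4 libraries and were tested with limma over 13436 genes, and IL1A and TNF did not. No cytokine passed an adjusted p of 0.05. All 8 were higher on average in the siPRMT7 libraries, by 0.10 to 0.34 on the log2(FPKM + 1) scale with a median of 0.21. That scale understates the differences of low genes. Of all genes tested 49.5% had a positive fold change, with a median of 0.00. Over all genes tested 0.0149% were called higher at the adjusted threshold, 2 genes in all, so a count of 0 among 8 is near the background. At an unadjusted p under 0.05, 2 of the 8 were higher (IL32 and CSF2), against 7.67% of all genes tested. In 1 of the 8, IL32, every siPRMT7 library lay above every siCtrl library, against 4.14% of all genes tested. Voom on rebuilt fragments also called 0 of the 8. These shares rest on 8 genes that were chosen with earlier results of these data known, so their common direction is a description and no support.

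**Figure D2:**
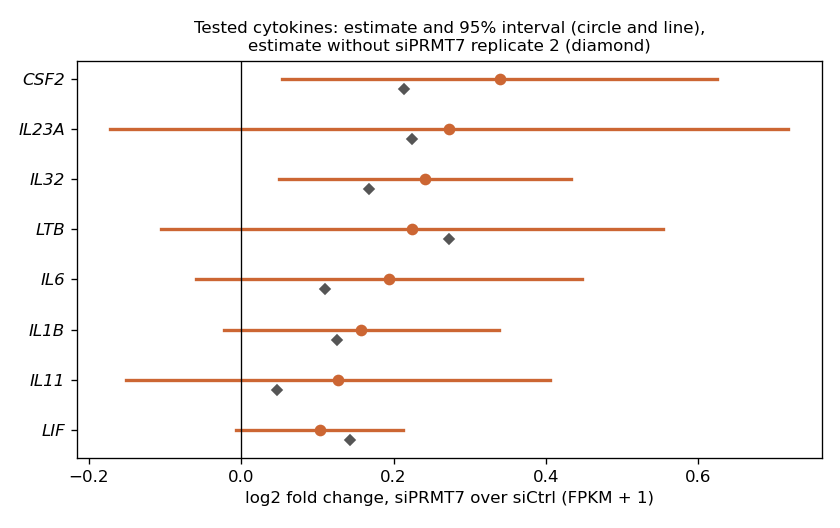
Log2 fold change of the 8 tested cytokines, siPRMT7 over siCtrl on the log2(FPKM + 1) scale, with limma's 95% interval (circle and line) and the estimate without siPRMT7 replicate 2 (diamond). The intervals of CSF2 and IL32 lie above 0 before adjustment, those of the other 6 include 0, and every diamond is above 0.

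Of the interleukin-1 ligands, IL1B was measured well above its neighbour IL1A. IL1B (ENSG00000125538, chr2:112829751-112836903, minus strand) encodes interleukin-1 beta, which is made as an inactive precursor and cut by caspase-1. It had 3.07, 2.83, 2.99 and 3.72 FPKM in siCtrl replicates 1 to 4 and 3.37, 3.94, 3.83 and 3.36 FPKM in siPRMT7 replicates 1 to 4. Its groups overlapped through siCtrl replicate 4, and the other 3 siCtrl libraries lay below all siPRMT7 libraries. The ratio of means was 1.15 and the log2 fold change 0.16 (95% interval -0.02 to 0.34, limma adjusted p = 0.425). IL1A (ENSG00000115008, chr2:112773915-112784590, minus strand), the neighbouring gene, encodes interleukin-1 alpha, which is active without that cut. IL1A had 1.33, 0.942, 0.622 and 0.617 FPKM in the siCtrl group and 0.666, 0.878, 0.690 and 0.774 FPKM in the siPRMT7 group. Between 19 and 45 fragments lay behind each value, so counting alone gives an error of 14.9 to 22.9%. The siPRMT7 values lay inside the siCtrl range (log2 difference -0.09, two-sided exact permutation p = 0.629). Without siCtrl replicate 1, the highest library, that difference was 0.02.

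The gp130 ligands LIF, IL6 and IL11 had ratios of siPRMT7 to siCtrl means between 1.08 and 1.18. LIF (ENSG00000128342, chr22:30240447-30246851, minus strand) encodes leukemia inhibitory factor. It had 36.9, 36.2, 37.7 and 36.3 FPKM in siCtrl replicates 1 to 4 and 41.3, 36.4, 41.5 and 39.3 FPKM in siPRMT7 replicates 1 to 4. In 3 of 4 siPRMT7 libraries LIF was above every siCtrl library, and replicate 2 lay among the siCtrl values. The ratio was 1.08 and the log2 fold change 0.10 (95% interval -0.01 to 0.21, limma adjusted p = 0.396). Without siPRMT7 replicate 2 the groups did not overlap and the log2 fold change was 0.14, with a limma adjusted p of 0.178. With 2089 to 2551 fragments per library, LIF was the best measured of the 10, with a counting error of at most 2.19%. The opposite-strand gene AC004264.1, with 41 to 70 fragments, shares 175 of its 3969 exonic bases.

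IL6 (ENSG00000136244, chr7:22725884-22732002, plus strand) encodes interleukin-6, the founding member of that family. It had 4.59, 5.41, 5.87 and 5.23 FPKM in the siCtrl group and 5.63, 7.53, 6.76 and 4.997 FPKM in the siPRMT7 group. Replicates 2 and 3 of siPRMT7 were above all siCtrl libraries, and replicates 1 and 4 were within their range. The ratio was 1.18 and the log2 fold change 0.19 (95% interval -0.06 to 0.45, limma adjusted p = 0.472), or 0.11 without siPRMT7 replicate 2. The antisense gene AC073072.1 shares 428 of the 2069 exonic bases of IL6, and without knowledge of strand in the counting its reads cannot be told from those of IL6. At most 4 fragments were given to AC073072.1 in any library. IL11 (ENSG00000095752, chr19:55364389-55370463, minus strand) encodes interleukin-11, a relative that uses its own receptor chain beside gp130. It had 1.44, 1.97, 1.68 and 1.26 FPKM in the siCtrl group and 1.66, 2.32, 1.40 and 1.95 FPKM in the siPRMT7 group, so that 1 siPRMT7 library was above the siCtrl range. The log2 fold change was 0.13 (95% interval -0.15 to 0.41, limma adjusted p = 0.651), 0.05 without siPRMT7 replicate 2 and 0.07 without siCtrl replicate 4.

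CSF2 (ENSG00000164400, chr5:132073790-132076170, plus strand) encodes GM-CSF, a growth factor for granulocytes and macrophages. It had 5.36, 5.64, 6.80 and 5.69 FPKM in siCtrl replicates 1 to 4 and 7.68, 10.2, 6.43 and 6.79 FPKM in siPRMT7 replicates 1 to 4. Replicates 1 and 2 of siPRMT7 were above every siCtrl library, and replicates 3 and 4 lay just below the highest siCtrl library, replicate 3. The ratio was 1.33 and the log2 fold change 0.34 (95% interval 0.05 to 0.62, limma adjusted p = 0.315). Without siPRMT7 replicate 2 the log2 fold change was 0.21 and the ratio 1.19. CSF2 is a short gene of 787 exonic bases, and 65 to 121 fragments lay behind its values, a counting error of 9.09 to 12.4%. In the siCtrl libraries its coefficient of variation was 10.8%, close to the 11.9% that counting alone gives, and in the siPRMT7 libraries it was 22.1%, against 10.4%.

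The tumor necrosis factor relatives TNF and LTB were the least abundant members together with IL1A. TNF (ENSG00000232810, chr6:31575567-31578336, plus strand), a ligand that activates NF-kB and cell death, was close to the limit of detection. It had 7, 16, 13 and 18 fragments in siCtrl and 8, 16, 16 and 14 fragments in siPRMT7 libraries, 54 in each group. In FPKM these were 0.263, 0.597, 0.512 and 0.740 against 0.307, 0.636, 0.636 and 0.572. The groups overlapped over nearly their whole range (log2 difference 0.01, two-sided exact permutation p = 0.886), and the sign of that difference turned in 4 of the 8 comparisons without 1 library. LTB (ENSG00000227507, chr6:31580525-31582522, minus strand), its neighbour, encodes lymphotoxin beta, the membrane anchor of lymphotoxin heterotrimers. LTB had 1.31, 0.978, 1.72 and 0.943 FPKM in the siCtrl group and 1.80, 1.34, 1.21 and 2.097 FPKM in the siPRMT7 group. Replicates 1 and 4 of siPRMT7 were above the siCtrl range, and the other siPRMT7 libraries within it. The ratio was 1.30 and the log2 fold change 0.22 (95% interval -0.11 to 0.55, limma adjusted p = 0.509), and 0.14 without siPRMT7 replicate 4. Between 21 and 47 fragments lay behind each value.

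IL23A (ENSG00000110944, chr12:56334174-56340410, plus strand) encodes the p19 subunit of interleukin-23. It had 2.02, 2.63, 1.95 and 1.28 FPKM in the siCtrl group and 2.71, 2.92, 3.42 and 1.44 FPKM in the siPRMT7 group. In 3 of 4 siPRMT7 libraries it was above every siCtrl library, and replicate 4 was low, as siCtrl replicate 4 was. The ratio was 1.33 and the log2 fold change 0.27, with a 95% interval from -0.17 to 0.72 (limma adjusted p = 0.546). Leaving out siCtrl replicate 4 gave 0.15, whereas leaving out a siPRMT7 library gave 0.17 (replicate 3) or 0.45 (replicate 4). Its spread of 28.2% in siCtrl and 32.1% in siPRMT7 libraries was larger than the 16.6 and 14.6% that counting alone gives.

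IL32 (ENSG00000008517, chr16:3065297-3082192, plus strand) encodes interleukin-32, a cytokine of primates and some other mammals that is induced by NF-kB and interferon. IL32 had 2.197, 2.24, 2.41 and 2.15 FPKM in siCtrl replicates 1 to 4 and 2.45, 3.46, 2.84 and 2.67 FPKM in siPRMT7 replicates 1 to 4. The groups did not overlap, although siPRMT7 replicate 1 lay just above siCtrl replicate 3, by 122 fragments against 117. Counting alone gives each IL32 value an error of 7.74 to 10%. The coefficient of variation of IL32 in siCtrl libraries was 5.01%, smaller than the 9.49% that counting alone gives. In siPRMT7 libraries it was 15.3%, against 8.52%. The ratio was 1.27 and the log2 fold change 0.24 (95% interval 0.05 to 0.43, limma adjusted p = 0.294). Without siPRMT7 replicate 2, its highest library, the ratio was 1.18 and the log2 fold change 0.17, and the groups still did not overlap. The adjusted p of IL32 ran from 0.133 to 0.593 over the alternatives.

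The library siPRMT7 replicate 2 held the highest value of 5 of the 8 tested cytokines (CSF2, IL6, IL1B, IL32 and IL11). Of all genes tested 29.6% were highest in that library, the largest share of the 8 libraries. It also had the highest ribosomal protein share and the highest place on the first principal component. The next highest share (3.38%) was in siPRMT7 replicate 3, and the lowest (2.90%) in siPRMT7 replicate 1. The tested cytokines deviated from their own averages by a mean log2 of 0.24 in siPRMT7 replicate 2, 0.09 in replicate 3 and 0.08 in replicate 1. Among the siCtrl libraries, replicate 3 had both the highest share (3.18%) and the highest mean deviation (-0.01). The part of these features in the result was not tested. Without siPRMT7 replicate 2 all 8 tested cytokines were still higher in the siPRMT7 libraries, with a median log2 fold change of 0.16 in place of 0.21. Leaving out any other library left the median between 0.18 and 0.25. In each of the 8 fits without 1 library the 8 tested cytokines were higher.

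**Figure D3:**
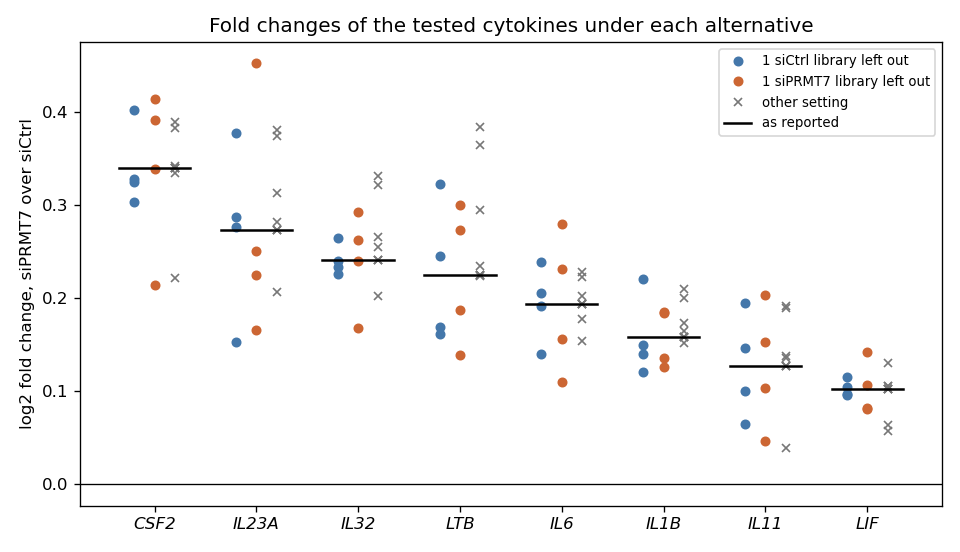
Log2 fold change (siPRMT7 over siCtrl) of each tested cytokine as reported (black line), with 1 siCtrl library left out (blue), with 1 siPRMT7 library left out (orange) and under the other settings (crosses). No point lies below 0, and the lowest orange point of CSF2, IL6, IL1B, IL32 and IL11 is the fit without siPRMT7 replicate 2.

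The cytokines varied only partly together. Over the 8 libraries the Pearson correlation of log2(FPKM + 1) was above 0 for 23 of the 28 pairs of tested cytokines, with a median of 0.38. After removal of the group means it was above 0 for 17 pairs, with a median of 0.14. CSF2 with IL32 (0.87) and IL6 with IL32 (0.84) were the most alike, and LIF with IL11 (-0.21) the least. All pairs share the same libraries, and siPRMT7 replicate 2 is an extreme point for several of these genes. Without it CSF2 with IL32 had 0.59 and LIF with IL32 had 0.84, up from 0.19. These values still hold the difference between the groups. After removal of the group means, over all 8 libraries, CSF2 with IL32 had 0.73 and LIF with IL32 had -0.69. The mean deviation of the 8 cytokines from their own averages was -0.19 to -0.01 in siCtrl libraries and 0.01 to 0.24 in siPRMT7 libraries.

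Among 10926 other protein-coding genes tested, those whose values followed that mean most closely over the 8 libraries were PSMB9 (Pearson r = 0.99), HIST1H2BD (0.99), LGMN (0.97), TNFAIP6 (0.97) and HBEGF (0.97). That mean was higher in every siPRMT7 library than in every siCtrl library, so genes picked to follow it were set to be higher there too. Their group means and p-values are therefore a description and no further result. PSMB9, an immunoproteasome subunit, had 3.52 FPKM on average in siCtrl and 5.06 FPKM in siPRMT7 libraries (limma adjusted p = 0.189). TNFAIP6, a secreted protein induced by TNF, had 4.99 and 6.47 FPKM (limma adjusted p = 0.222), and HBEGF, a ligand of the EGF receptor, had 20.3 and 22.9 FPKM (limma adjusted p = 0.270). HIST1H2BD is a histone gene with near-identical copies, so its 88.3 and 104 FPKM are uncertain. For single cytokines the closest genes were H3F3B and NDUFC1 for IL32 (0.99 each), PDGFB and FAM161B for LIF (0.98 and 0.97), and CCDC51 and ERI3 for CSF2 (0.98 each). For IL6 they were MORF4L2 (0.98) and ALDH9A1 (0.97), for IL1B KIAA2013 (0.97) and PIGH (0.96), and for IL11 C19orf12 (0.96) and CENPH (0.95). For LTB they were GSDME (0.96) and MMP3 (0.95), and for IL23A PEX13 and NDUFAF5 (0.95 each). These are the highest of many correlations over 8 libraries and are given with no test.

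Of the 10 transcripts 8 held an AU-rich pentamer in the 3′ UTR, and in 7 of these 8 the pentamer density lay at or above the 86th percentile of protein-coding genes, with LIF at 60.4. In the GENCODE release 29 transcript with the longest coding sequence, the pentamer ATTTA did not occur in LTB or IL32. Per kilobase of 3′ UTR, CSF2 had 25.2 pentamers, IL6 13.99, IL23A 13.1, TNF 11.3, IL1B 9.84, IL11 5.56, IL1A 4.34 and LIF 2.19. The median of 17601 protein-coding genes with a 3′ UTR of at least 100 bases was 1.54. The nonamer TTATTTATT was found in IL11 (6 matches), TNF (5), CSF2 (3), IL1B (2), LIF (2) and IL23A (1), and in 7.74% of the 17601 genes. The 3′ UTRs differ in length, from 154 bases in LTB to 3204 in LIF, and a longer one has more chance to hold a match. Among genes with a 3′ UTR of similar length the median count was 7 for LIF, which held 7, and 0 for LTB and IL32. The other members held more than that median. The share of all genes with any pentamer was not counted. The densest stretches of 30 bases are shown for the genes with the most pentamers per kilobase and for the abundant LIF, with the pentamers in capitals. They are written 5′ to 3′ on the strand of the gene, with T for U, from the GENCODE transcripts on GRCh38.
CSF2, chr5:132076072-132076101, plus strand: ttttaaaatATTTATTTATTTATTTATTTA
TNF, chr6:31577999-31578028, plus strand: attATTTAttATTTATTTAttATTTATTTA
IL1B, chr2:112830003-112830032, minus strand: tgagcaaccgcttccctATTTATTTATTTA
IL6, chr7:22731697-22731726, plus strand: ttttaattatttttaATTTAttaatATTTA
IL23A, chr12:56340335-56340364, plus strand: cagtttggggaggattATTTAttgtATTTA
LIF, chr22:30240522-30240551, minus strand: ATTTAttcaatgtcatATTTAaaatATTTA
CSF2 and TNF hold 5 pentamers in 30 bases, most of them overlapping by a shared A, whereas the pentamers of LIF stand apart. Of the genes shown, CSF2 had a log2 fold change of 0.34, IL23A 0.27, IL6 0.19, IL1B 0.16 and LIF 0.10, and TNF, at 7 to 18 fragments, a log2 difference of 0.01. IL32 and LTB, with 0 pentamers, had log2 fold changes of 0.24 and 0.22. IL11, with 9 pentamers and the most nonamers, had 0.13, and IL1A, with 5 pentamers and 19 to 45 fragments, a log2 difference of -0.09. A relation between pentamers and fold changes was not tested.

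**Figure D4:**
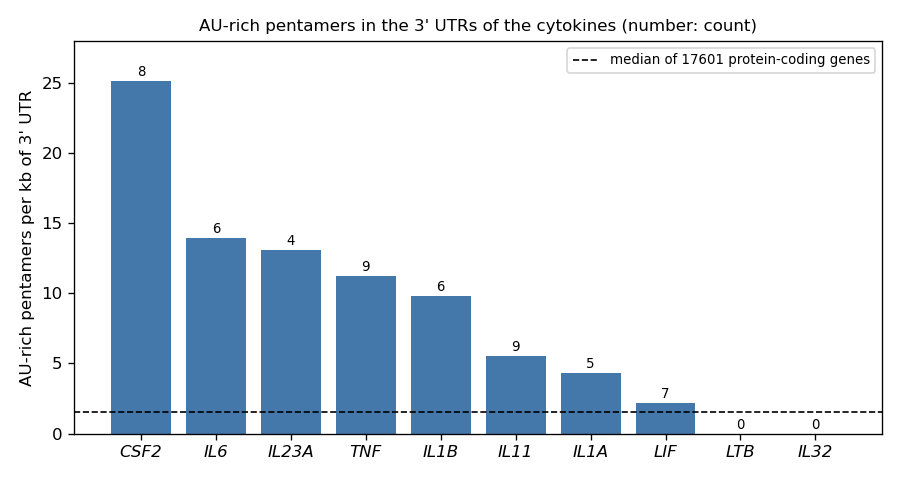
AU-rich pentamers per kilobase of 3′ UTR in the 10 cytokine transcripts, with the count above each bar, and the median of 17601 protein-coding genes as a dashed line. CSF2 is highest at 25.2 per kilobase, LIF at 2.19 is near the median of 1.54, and LTB and IL32 are at 0.

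The proximal promoters were read for matches to NF-kB sites, since that factor is known to drive several of these genes. RefSeq promoters (GRCh38.p14) were at hand for 9 of the 10 genes, all but LIF, and the 250 bases before the annotated start were searched on both strands unless stated. The NF-kB consensus matched in 4 of the 9 (IL6, LTB, IL23A and IL32), and in 9.95% of 35093 promoters. The AP-1 motif TGANTCA matched in 3 of the 9 (IL1A, IL11 and IL23A), against 6.57% of promoters. The cyclic AMP element TGACGTCA matched in 1 (IL32), against 1.65% of promoters. The interferon-stimulated response element matched in 0 of the 9, IL32 included, against 3.02% of promoters. The TATA motif TATAAA, searched on the coding strand alone, matched in 3 of the 9 (IL1A, TNF and IL23A), against 6.8% of promoters. That match lay 29 to 24 bases before the start in TNF, 62 to 57 in IL23A and 239 to 234 in IL1A. The 4 NF-kB matches are shown with their flanks, 5′ to 3′ on the strand of the gene, with the match in capitals.
IL6, chr7:22727117-22727146, plus strand: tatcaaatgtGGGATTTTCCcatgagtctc
LTB, chr6:31582492-31582521, minus strand: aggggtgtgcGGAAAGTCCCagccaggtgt
IL23A, chr12:56338779-56338808, plus strand: gatgcagggaGGGGAATCCCacctgctgtg
IL32, chr16:3065295-3065324, plus strand: ctgtactcaGGGAGTTTCCCcagccagctg
The match ends 64 bases before the start in IL6, 77 in LTB, 86 in IL23A and 89 in IL32, where overlapping matches on both strands give 11 capitals. Of the 30 bases shown, 26 in LTB and 28 in IL32 also lie in GENCODE exons of the gene itself. The 4 genes with a match had log2 fold changes of 0.19 to 0.27. Of the other 4 tested, CSF2 had 0.34, IL1B 0.16, IL11 0.13, and LIF, which was not searched, 0.10. A match is a stretch of letters and not evidence of binding.

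Of all genes tested, 7.67% were higher and 5.49% lower at an unadjusted p under 0.05, and in 4.14% every siPRMT7 library lay above, in 4.43% below, every siCtrl library. The counts of the following lists stand beside those shares. No receptor of these cytokines passed the test, and 8 were too low to be tested. Of 16 receptor genes 8 were tested and 0 passed, with 2 higher, 6 lower and a median log2 fold change of -0.04. None of the 8 had an unadjusted p under 0.05 in limma or groups without overlap. TNFRSF1A, the main TNF receptor, had 34.04 ± 0.770 FPKM in the siCtrl group and 36.2 ± 1.71 FPKM in the siPRMT7 group (SD, n = 4 each, limma adjusted p = 0.430). LTBR, the lymphotoxin receptor, had 30.3 ± 0.785 and 31.7 ± 1.02 FPKM (limma adjusted p = 0.509). IL6ST, which encodes gp130, had 26.6 ± 1.57 and 24.02 ± 1.91 FPKM (limma adjusted p = 0.384). The receptor chains for GM-CSF and interleukin-23 were near or at 0: CSF2RA reached 2 fragments, and CSF2RB and IL23R had 0 fragments in all 8 libraries, which allows up to 0.191 to 0.207 ppm of a library each. IL1R1, the signalling receptor of interleukin-1, had 0.820 to 1.05 FPKM.

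Genes of interleukin-1 maturation and restraint held 7 tested members of 14, of which 4 were higher, 3 lower and 0 passed (median log2 fold change 0.09). At an unadjusted p under 0.05, 3 were higher and 0 lower, and in 2 the groups did not overlap. SIGIRR, a receptor that restrains interleukin-1 signalling, had 6.29 ± 0.327 FPKM in the siCtrl group and 7.54 ± 0.519 FPKM in the siPRMT7 group, with no overlap (log2 fold change 0.23, limma adjusted p = 0.205). AIM2, a DNA sensor of the inflammasome, had 1.27 ± 0.257 and 1.84 ± 0.195 FPKM, also with no overlap (0.32, limma adjusted p = 0.263). The calpains CAPN2 and CAPN1, proteases that can cut the interleukin-1 alpha precursor, had 69.9 ± 1.88 and 67.03 ± 1.48 FPKM and 33.7 ± 0.723 and 33.7 ± 1.37 FPKM. The inflammasome sensor NLRP3 reached 6 fragments and caspase-1 (CASP1) 1.24 FPKM at most.

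Of 22 other interleukins and growth cytokines 12 were tested, 9 were higher, 3 lower and 0 passed (median log2 fold change 0.09). At an unadjusted p under 0.05, 5 were higher, against 7.67% of all genes tested, and 0 lower, and in 3 every siPRMT7 library lay above every siCtrl library, against 4.14%. TNFSF10, the death ligand TRAIL, had 3.23 ± 0.1004 FPKM in the siCtrl group and 3.86 ± 0.230 FPKM in the siPRMT7 group (log2 fold change 0.20, limma adjusted p = 0.222). IL24, an interleukin-10 relative, had 20.3 ± 0.740 and 23.5 ± 1.79 FPKM (0.19, limma adjusted p = 0.237). Neither overlapped between groups. TGFB1, which encodes transforming growth factor beta, was more abundant than LIF at 71.4 ± 1.71 and 76.5 ± 3.21 FPKM (limma adjusted p = 0.374), as was IL18 at 42.3 ± 1.98 and 44.6 ± 4.49 FPKM (0.658).

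Between the receptors and NF-kB stand adaptors, kinases and ubiquitin ligases. All 20 relay genes were tested, 8 were higher and 12 lower, 0 passed and 0 had an unadjusted p under 0.05 in either direction (median log2 fold change -0.02). TRADD, an adaptor of the TNF receptor, had 15.7 ± 0.793 FPKM in the siCtrl group and 18.5 ± 3.01 FPKM in the siPRMT7 group (limma adjusted p = 0.393), and MYD88, the adaptor of interleukin-1 receptors, had 21.9 ± 0.774 and 23.96 ± 1.81 FPKM (0.403). The kinase IRAK1 had 66.03 ± 3.08 and 64.9 ± 5.13 FPKM, and the ubiquitin ligase BIRC2 44.6 ± 1.37 and 41.9 ± 2.86 FPKM. Of 6 genes that shed TNF or the interleukin-6 receptor 5 were tested, with 2 higher, 3 lower and 0 passing, and 1 (FRMD8) was higher at an unadjusted p under 0.05. FRMD8, a partner of the iRhom proteins RHBDF1 and RHBDF2, had 22.2 ± 0.532 and 24.01 ± 0.861 FPKM with no overlap (limma adjusted p = 0.315). RHBDF1 had 8.15 ± 0.389 and 8.702 ± 0.416 FPKM, and RHBDF2 9.43 ± 0.307 and 8.895 ± 0.835 FPKM.

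Downstream of gp130 the table held 0 fragments of STAT3 in every library. STAT3 is the transcription factor through which interleukin-6, interleukin-11 and LIF act in most cells, and PC3 is known as a line without it. A count of 0 allows up to 0.191 to 0.207 ppm of a library. The rule for named genes does not take STAT3, which is named after seeing its values. Of 15 genes of this branch 13 were tested, 7 higher and 6 lower, and 0 passed (median log2 fold change 0.00). At an unadjusted p under 0.05, 3 were higher and 1 lower, against 7.67 and 5.49% of all genes tested, and the groups of the same 4 genes did not overlap. CEBPD, a transcription factor of the acute-phase response, had 10.8 ± 1.001 FPKM in the siCtrl group and 13.6 ± 1.19 FPKM in the siPRMT7 group (log2 fold change 0.31, limma adjusted p = 0.198). Its relative CEBPB, which binds the IL6 promoter, had 92.7 ± 5.10 and 108 ± 9.27 FPKM (0.21, limma adjusted p = 0.269). BCL3, a nuclear partner of NF-kB, had 13.7 ± 0.418 and 15.3 ± 0.758 FPKM (0.15, limma adjusted p = 0.265). In these 3 every siPRMT7 library lay above every siCtrl library, against 4.14% of all genes tested. The gene in which every siPRMT7 library lay below, against 4.43%, was the phosphatase PTPN1, named after seeing its values, with 24.3 ± 0.566 and 22.4 ± 0.654 FPKM (-0.12, limma adjusted p = 0.286). PTPN11, a phosphatase that binds gp130, had 31.5 ± 1.44 and 28.8 ± 2.65 FPKM (limma adjusted p = 0.429).

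Among the factors that bind AU-rich elements or control cytokine message decay, all 15 were tested, 10 were higher, 5 lower and 0 passed (median log2 fold change 0.02). At an unadjusted p under 0.05, 2 were higher and 1 lower, each without overlap of the groups. ZFP36, which encodes tristetraprolin, the decay factor that binds the TTATTTATT element, had the smallest p of the list. It had 17.1 ± 0.609 FPKM in the siCtrl group and 20.4 ± 0.239 FPKM in the siPRMT7 group with no overlap (log2 fold change 0.24, limma adjusted p = 0.113). DUSP1, a phosphatase that limits the p38 kinase, had 54.5 ± 0.599 and 62.95 ± 4.94 FPKM, also with no overlap (0.20, limma adjusted p = 0.222). The lower gene was MAPK14, the p38 kinase itself, named after seeing its values, with 11.5 ± 0.2504 and 10.7 ± 0.449 FPKM (-0.10, limma adjusted p = 0.360). The abundant binding proteins KHSRP (90.07 ± 2.73 and 86.9 ± 6.85 FPKM) and ZFP36L1 (means of 64.1 and 65.9 FPKM) overlapped between groups.

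**Figure D5:**
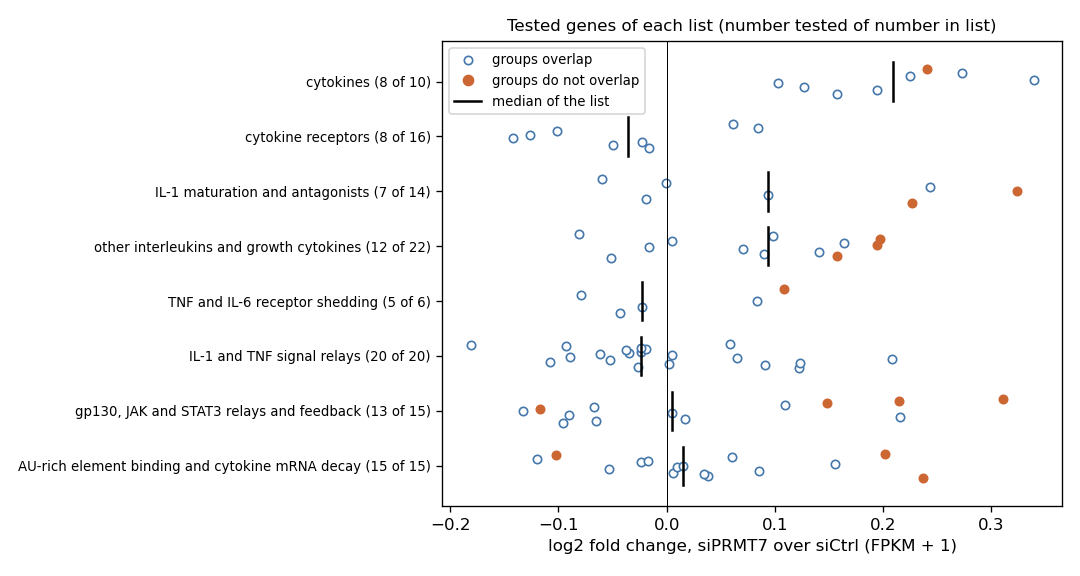
Log2 fold change (siPRMT7 over siCtrl, FPKM + 1) of each tested gene of the cytokine list and of 7 related lists, filled where the groups do not overlap, with the list median as a black line. The cytokines are the list with every tested gene above 0, with a median of 0.21, and the other medians lie between -0.04 and 0.09. Cytokines and lists were chosen with earlier results of these data known.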

How the data were processed

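The authors deposited FPKM values per gene for 8 libraries, together with the length of each gene in bases. Per the submitters' processing notes the tools were cutadapt 2.5, HISAT2 2.1.0 and featureCounts 1.6.3. Those notes name a mouse build, whereas all 58735 identifiers and coordinates match human GENCODE release 29 on GRCh38. Whether strand was used in counting is not stated in those notes. FPKM multiplied by gene length gave whole fragments for 100% of values above 0 (tolerance 0.01 fragments), from which depth and counting error were taken, and 3 fragments were used as the floor. Errors and floors from fragments cover counting only.

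A gene was tested where 4 or more of the 8 libraries reached an FPKM of 1. The test, on log2(FPKM + 1), was limma 3.58.1 (R 4.3.3) with a variance trend (two-sided, Benjamini-Hochberg over all 13436 genes, threshold 0.05). The test was checked on simulated data with the same dispersion for all genes and no outlying library. That check cannot show how the test performs with a library such as siPRMT7 replicate 2. Low cytokines and PRMT7 had exact permutation tests over 70 assignments (scipy 1.17.1). Alternatives tried were another pseudocount, no filter or FPKM at least 5, TPM and quantile scaling, library weights, voom, a replicate block, protein-coding genes alone and leaving out each library. Members and lists were chosen with earlier results of these data known. Named genes were PRMT7, all cytokines, from each list the 2 with the smallest p and the 2 with the highest mean, and the genes most alike in pattern. Some of the prostate markers are not reported here. Sequences came from RefSeq (GRCh38.p14) and GENCODE.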

Additional observations from a re-analysis of the deposited data

How the results depend on the processing

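The count of cytokines called was 0 under all 17 alternatives, and the 8 cytokines tested as reported had positive fold changes in each of them (3 of the 8 were tested with FPKM at least 5). The count of all genes called, 2 as reported, was 1 with a pseudocount of 0.1, with FPKM at least 5 and with quantile normalization, 5 with no filter, 11 with protein-coding genes alone, 12 with voom and 58 with library weights. Without 1 library it ran from 0 to 2. With the replicate block it was 0. Same-numbered libraries of both groups had deviations that correlated at -0.03, -0.01, 0.05 and 0.06, against -0.12 to 0.13 for the other pairs. No pairing by number was visible in these values, which cannot show how the libraries were processed. With the block the smallest limma adjusted p of a cytokine was 0.366. The count of cytokines whose groups did not overlap was 0 with FPKM at least 5, where IL32 was not tested, and 1 to 2 without 1 library. It was 2 without siCtrl replicate 3 (IL32 and CSF2), siCtrl replicate 4 (IL32 and IL1B), siPRMT7 replicate 2 (IL32 and LIF) or siPRMT7 replicate 4 (IL32 and IL23A). On the TPM scale the PRMT7 difference was -0.16 and passed the exact permutation test (p = 0.0286), the median of all genes tested moved to -0.04 and the cytokine median was 0.22. In the other settings run the PRMT7 difference did not pass, and it was -0.07 without siPRMT7 replicate 2 (exact permutation p = 0.114). Without 1 library or with the block, too few assignments remain for a p under 0.05. IL1A ran from -0.152 to 0.0245 and TNF from -0.0758 to 0.0887 without 1 library. IL1A turned to 0.0245 without siCtrl replicate 1. TNF turned to -0.0758 when siCtrl replicate 1 was left out, to -0.0191 with either siPRMT7 replicate 2 or replicate 3 omitted, and to -5.75e-05 with siPRMT7 replicate 4 omitted. The cause of these shifts was not tested. The PRMT7 permutation was not run with library weights, and counts of groups without overlap were not taken with library weights or the block, which leave the values as they are. Fragment numbers limit TNF, IL1A, LTB and IL23A most, each with 61 fragments or fewer in every library.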

Other observations

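Other genes of interleukin-1 maturation lay below the level for testing and are given as values, chosen after they were seen. CASP1 had means of 0.690 (siCtrl) and 1.01 FPKM (siPRMT7; 28 to 69 fragments). PYCARD, the inflammasome adaptor, had 0.403 and 0.611 FPKM (8 to 26 fragments), and CARD16, a relative of the caspase-1 prodomain, had 0.382 and 0.677 FPKM (5 to 23 fragments). CARD16 and CASP1 are near-identical over part of their sequence, so the division of fragments between them is uncertain. IL1RN, the receptor antagonist, had 0.611 and 0.664 FPKM. The sensors NLRP1 and NLRP3 had lower siPRMT7 means, with 0.117 and 0.0948 FPKM (16 to 32 fragments) and 0.0375 and 0.0312 FPKM (0 to 6 fragments), and CARD18 was at 0 fragments. CSF3, the granulocyte relative of CSF2, had 2 to 16 fragments in any library, and TNF's other neighbour LTA had 1 to 16.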
